A study of Homo sapiens with 12 samples.

Results

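The suppressors of cytokine signalling (SOCS) are a family of 8 human genes, CISH and SOCS1 to SOCS7, and all 8 were followed here in 2 human cell lines exposed to poultry dust extract. The members were taken by gene symbol, with every annotated probe of the array. The family was chosen with earlier results of these data known. They accounted for 16 of 47320 probes. Detection p-values give the share of negative control probes at least as bright, and a probe entered the tests where this share stayed below 0.01 in both replicates of 1 or more groups. That left 7 of the 16 SOCS probes, for 4 of the 8 genes (SOCS2, SOCS3, SOCS4 and SOCS5), among 15489 genes and unnamed probes tested.

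SOCS proteins are induced by cytokines and feed back on the pathway that induced them. Each has an SH2 domain, which binds phosphorylated tyrosines on receptors or kinases, and a carboxy-terminal SOCS box, which recruits elongins, cullin 5 and RNF7 into a ubiquitin ligase. SOCS1 and SOCS3 also carry a kinase inhibitory region that blocks JAK kinases directly, SOCS3 mainly at the gp130 receptor subunit shared by the IL-6 family. CISH and SOCS2 act on growth hormone, prolactin, erythropoietin and other STAT5 signals, SOCS4 and SOCS5 are best known for the EGF receptor, and SOCS6 and SOCS7 for insulin and other receptor tyrosine kinases. In airway epithelium and in monocytes, SOCS3 is a well-known early brake on IL-6 family and Toll-like receptor responses.

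RNA was hybridised to 12 arrays of 1 Illumina chip, 2 for each of 6 groups. THP-1, a monocytic leukaemia line, received 0.1% dust extract for 1 h or 3 h, and its controls received medium. BEAS-2B, an immortalised bronchial epithelial line, received 0.25% dust extract for 1 h or 3 h, and its controls received medium as well. Cells of all 6 groups had been kept overnight without serum, and no duration is labelled for the medium controls. Because dose and line changed together, a difference between the lines in their response to dust cannot be told apart from a difference in dose. The design text also mentions 6 h, which was not analysed here. Whether the 2 replicates of each group were cultured apart is not labelled, and the p-values cover only array-to-array spread, possibly technical in origin.

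Levels are normalized intensities on a log2 scale unless raw signal is named, and changes are differences on that scale. The arrays each detected between 14977 and 17045 probes, and replicate arrays correlated at 0.9844 to 0.9953. Since the THP-1 samples carry the source name A459, identity was checked on markers. In THP-1 groups, 10 of 11 monocyte markers on the array were detected (MPO was not), against 3 or 4 in BEAS-2B groups. The summed normalized intensity of the kept monocyte markers was 38100 to 42100 in THP-1 groups. In BEAS-2B it was 2270 to 2750 after 3 h of dust, against 1550 to 1770 in controls. Of 10 epithelial markers, 10 were detected in each BEAS-2B group and at most 1 in THP-1 groups. THP-1 groups showed 1 of 8 markers of the A549 lung line. At 3 h in BEAS-2B, replicate 2 lay lower than replicate 1 in 358 of 505 genes called higher with dust (70.9%), against 45.5% of all genes tested, so SOCS3 at that time is given with and without each array. Of 8 fibroblast markers, 1 was detected in each THP-1 group, and their summed intensity was 878 to 1900 after 3 h of dust, against 669 to 678 in THP-1 controls. In BEAS-2B groups 4 of the 8 were detected, and their sum was 5760 to 8130 after 3 h of dust, against 9610 to 10200 in controls. Of 7 lymphocyte markers, at most 2 were detected in THP-1 groups and 0 in BEAS-2B groups. The part of these markers in the results was not tested.

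The RefSeq promoter table (GRCh38.p14) had an entry for 5 of the 8 members, CISH, SOCS1, SOCS3, SOCS4 and SOCS6. Each entry runs from 250 bases before to 50 bases after a gene start. CISH and SOCS3 are shown because both are textbook STAT-induced genes, and in these arrays CISH was below detection throughout while SOCS3 was detected on all dust arrays. SOCS3 has 2 entries, and the upstream one spans the start of the annotated gene. The CISH window lies on the minus strand at chr3:50611725-50612024, and the SOCS3 windows on the minus strand at chr17:78360876-78361175 and chr17:78359618-78359917. Capitals mark matches to the STAT motif TTCNNNGAA, and all sequences read 5′ to 3′ along the gene.
CISH: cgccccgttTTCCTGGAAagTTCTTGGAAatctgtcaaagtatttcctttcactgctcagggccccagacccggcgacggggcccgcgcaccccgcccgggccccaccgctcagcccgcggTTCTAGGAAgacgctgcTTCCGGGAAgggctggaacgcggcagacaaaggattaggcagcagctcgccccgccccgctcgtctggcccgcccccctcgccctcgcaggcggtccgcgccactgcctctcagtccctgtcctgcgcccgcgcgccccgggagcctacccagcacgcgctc
SOCS3 upstream start: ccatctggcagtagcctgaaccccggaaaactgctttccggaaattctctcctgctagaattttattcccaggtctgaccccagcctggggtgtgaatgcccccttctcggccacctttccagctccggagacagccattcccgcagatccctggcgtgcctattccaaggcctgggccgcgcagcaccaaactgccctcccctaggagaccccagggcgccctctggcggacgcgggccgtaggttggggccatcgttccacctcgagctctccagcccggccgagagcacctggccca
SOCS3 downstream start: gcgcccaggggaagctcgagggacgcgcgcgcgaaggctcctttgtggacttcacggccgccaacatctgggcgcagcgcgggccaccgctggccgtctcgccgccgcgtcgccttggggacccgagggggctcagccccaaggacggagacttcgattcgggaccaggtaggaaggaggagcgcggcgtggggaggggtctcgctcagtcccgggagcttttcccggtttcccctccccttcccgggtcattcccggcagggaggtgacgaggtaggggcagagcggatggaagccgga
CISH held 4 STAT motifs, at bases 10 to 18, 21 to 29, 122 to 130 and 139 to 147 of its window, all upstream of the start. Of 35116 promoter windows of the same length, 7.66% held at least 1 such motif and 7 windows held 4 or more. Both strands were searched for TTCNNNGAA (STAT), for GGGA followed by any base and TTTCC (NF-kB) and for TGANTCA (AP-1). None of the 3 occurred in either SOCS3 window, or in those of SOCS1, SOCS4 and SOCS6. The bases between the 2 SOCS3 windows, and those outside all windows, were not searched. The NF-kB letters occurred in 0.558% and the AP-1 letters in 7.71% of all windows. These are matches of letters within 300 bases and say nothing of binding. CISH, with the 4 motifs, was not detected on any array.

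Detection differed widely within the family. SOCS4 was detected on all 12 arrays by probe ILMN_2413259. SOCS3 (ILMN_1781001) was detected on all 8 dust arrays and on no control array. SOCS2 (ILMN_2131861) was detected on all BEAS-2B arrays and on 1 of 2 arrays in each THP-1 group. SOCS5 was detected on 7 arrays by ILMN_1785286 and on 9 by ILMN_2350970. SOCS6 reached detection on 3 arrays, SOCS1 on 2, SOCS7 on 1 and CISH on 0. Within a gene the probes often differed: 2 of 3 SOCS4 probes and 2 of 4 SOCS5 probes were never detected. Probe levels are not comparable between genes, since probes differ in hybridisation, so no order between members is drawn from them.

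**Figure D1:**
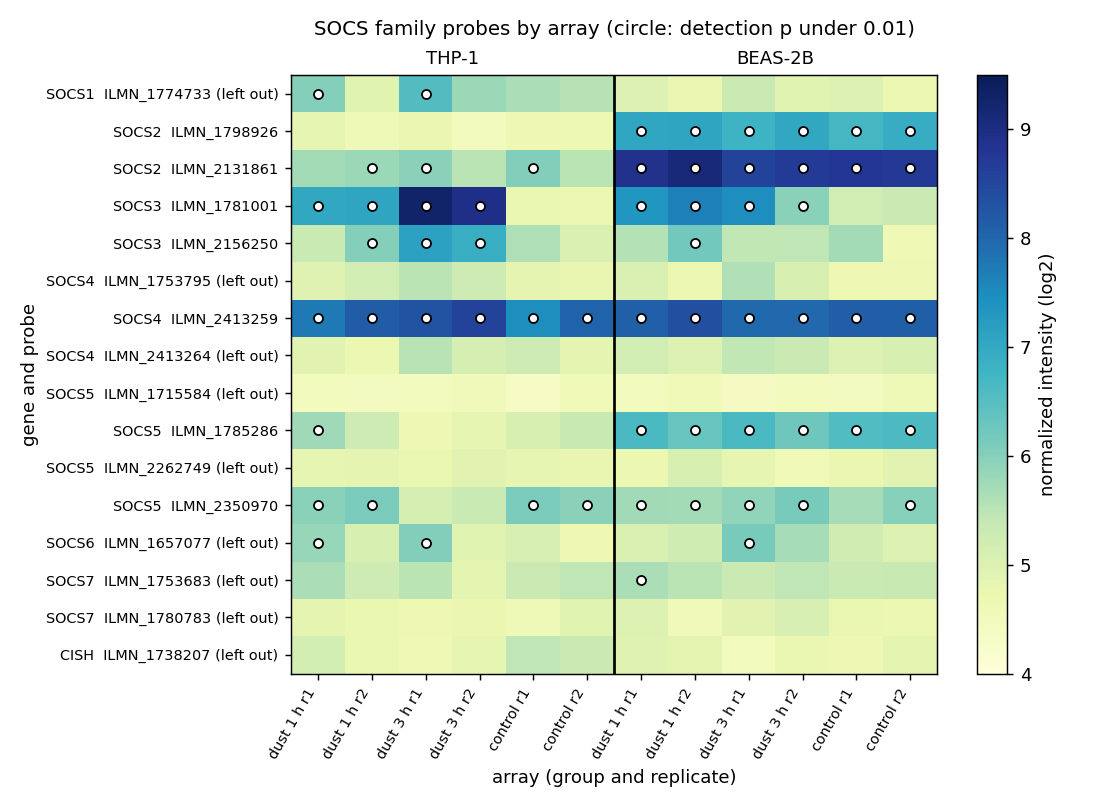
Normalized log2 intensity (colour) of the 16 SOCS family probes on each of the 12 arrays, grouped by line, with a circle where the detection p-value is under 0.01. SOCS3 probe ILMN_1781001 has circles on the 8 dust arrays and none on the 4 control arrays, and SOCS4 probe ILMN_2413259 has circles on all 12.

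With dust, SOCS3 was called higher in both lines at both times on its brighter probe. In THP-1 it was at least 2.55-fold higher than control after 1 h and at least 10.6-fold higher after 3 h. In BEAS-2B it was at least 3.64-fold higher after 1 h and at least 2.1-fold higher after 3 h. The BEAS-2B change at 3 h depended on 1 array, with a log2 change of 0.73 without replicate 1 and 2.22 without replicate 2, and was not called on the second SOCS3 probe. At 1 h SOCS3 was the 1 member called of 4 measured in each line. Of all genes tested, 1.65% were called in THP-1 at 1 h (1.26% higher) and 1.18% in BEAS-2B (1.1% higher). At 3 h 2 of 4 members were called in THP-1, where 45.6% of all genes tested were (19.1% higher), and 1 of 4 in BEAS-2B, where 5.47% were (3.26% higher). SOCS3 passed the detection filter only through its dust groups, so the count of measured members called is a description. In bulk RNA, fewer cells of a kind and less RNA per cell cannot be told apart.

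Per array, SOCS3 (ILMN_1781001) had log2 levels of 7.01 and 7.06 in THP-1 after 1 h and of 9.27 and 8.92 after 3 h, against 4.75 and 4.69 in THP-1 controls. Every THP-1 dust array lay above both controls, and both 3 h arrays lay above both 1 h arrays. Of all genes tested, 38.3% had no overlap between dust and control arrays in THP-1 at 1 h, 67.9% at 3 h and 66.8% between 3 h and 1 h. In raw signal the same arrays read 166 and 189 at 1 h and 474 and 384 at 3 h, against 77.7 and 70 in controls, the last being near the array medians of 76.3 to 84.3. In BEAS-2B, SOCS3 had log2 levels of 7.35 and 7.67 after 1 h and of 7.47 and 5.97 after 3 h, against 5.17 and 5.31 in controls. All BEAS-2B dust arrays exceeded both controls, but the 2 arrays at 3 h were far apart, and the lower of them came within 1 log2 unit of control. Of all genes tested, 43.3% had no overlap with control in BEAS-2B at 1 h and 57.4% at 3 h. The group means fell in the order THP-1 3 h (9.09 ± 0.25), BEAS-2B 1 h (7.51 ± 0.22), THP-1 1 h (7.03 ± 0.04), BEAS-2B 3 h (6.72 ± 1.06), BEAS-2B control (5.24 ± 0.10) and THP-1 control (4.72 ± 0.04; SD, n = 2 each). The 3 h BEAS-2B group overlapped both 1 h groups, and the control groups were both below detection.

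**Figure D2:**
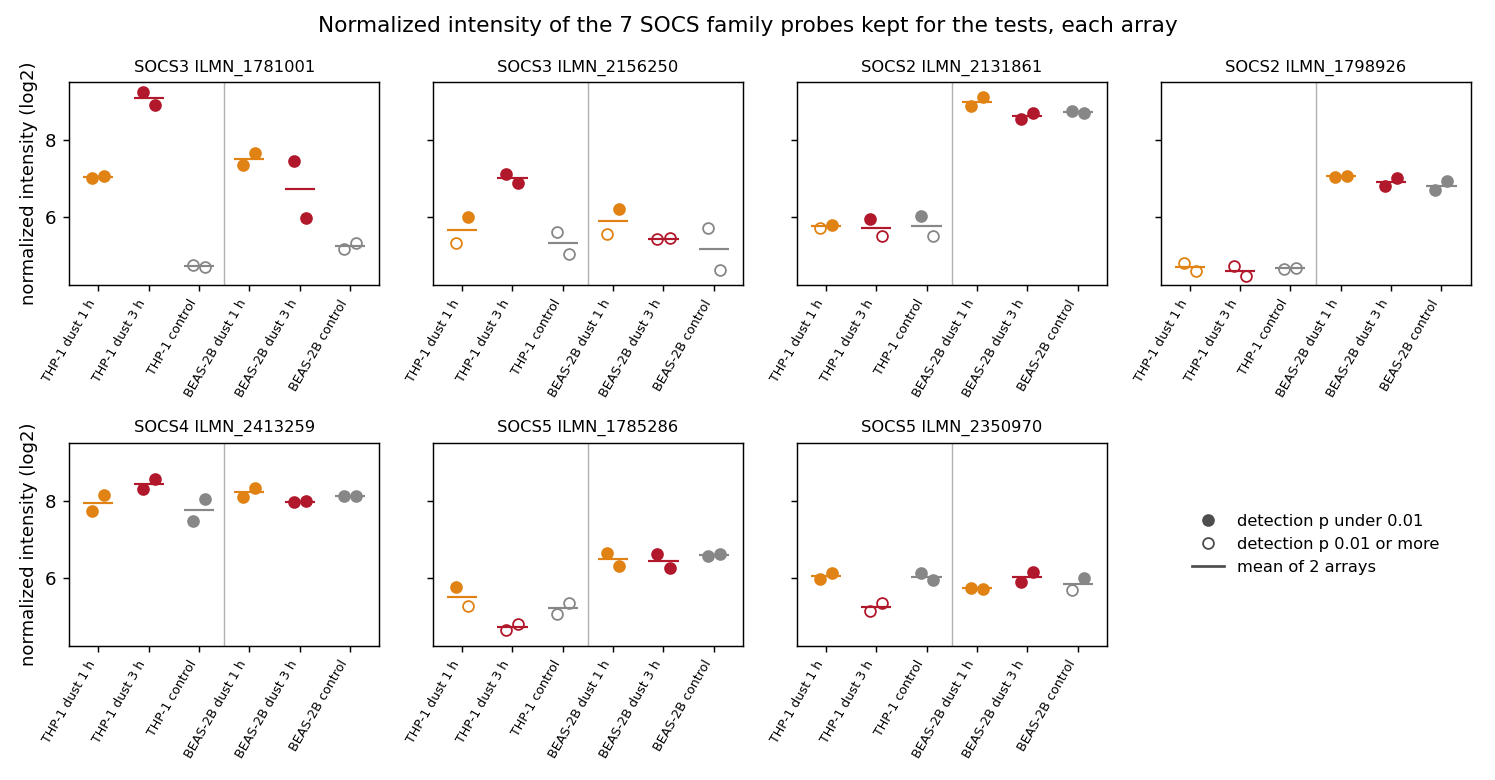
Normalized log2 intensity of each array for the 7 SOCS probes kept for the tests, by group, with filled points where the detection p-value is under 0.01 and a line at the mean of the 2 arrays. SOCS3 lies above control in every dust group on its brighter probe, SOCS2 separates BEAS-2B from THP-1, and SOCS4 stays between 7.48 and 8.57 on all arrays.

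The limma fit over all 12 arrays gave SOCS3 a log2 change of 2.31 ± 0.37 (SE) in THP-1 at 1 h, with a Benjamini-Hochberg adjusted p of 0.00901. At 3 h in THP-1 the change was 4.37 ± 0.37, with an adjusted p of 7.39e-06. In BEAS-2B it was 2.27 ± 0.37 at 1 h (adjusted p = 0.0131) and 1.48 ± 0.37 at 3 h (adjusted p = 0.0453), by the same limma fit. The controls are shared by the 1 h and 3 h comparisons of a line, so these changes are not independent of each other. Since SOCS3 was not above background in controls, the fold of such a gene is given as a lower bound, the mean of the brighter group over the mean of, per array, the higher of the lowest detected signal and the probe's own signal.

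Without any 1 of the 4 arrays compared, the THP-1 call at 1 h no longer passed (limma adjusted p 0.0628 to 0.0751), although the change stayed at 2.28 to 2.35. The BEAS-2B call at 1 h also ended without any 1 of its 4 arrays (limma adjusted p 0.078 to 0.164). At 3 h in BEAS-2B the call ended in 11 of 12 fits that left out 1 array (limma adjusted p 0.0507 to 0.238). The 3 h call in THP-1 passed in all 12 of these fits, with changes of 4.23 to 4.58. In such a fit a group left with 1 array is assumed to vary like the other groups, which supply the spread. Normalization and the detection filter were rerun on the remaining arrays, and a group left with 1 array passed probes on that array alone. The set of genes tested therefore changed as well.

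Between 1 h and 3 h, SOCS3 was called in THP-1 and not in BEAS-2B, and the difference between these 2 time courses was not tested. In THP-1, SOCS3 was 4.17-fold higher at 3 h than at 1 h, a log2 change of 2.06 ± 0.37 (limma adjusted p = 0.00135), where 39.5% of all genes tested were called and 16.8% called higher. In BEAS-2B the change from 1 h to 3 h was -0.79 ± 0.37 (limma adjusted p = 0.336). Without replicate 1 of the BEAS-2B 3 h arrays it was -1.54 (limma adjusted p = 0.00425, with the spread taken from the other groups), so the BEAS-2B time course rests on which of these 2 arrays is read. Of all genes tested, 2.72% were called between 3 h and 1 h in BEAS-2B.

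The dust effect on SOCS3 was compared between lines as an interaction term. At 1 h it was 2.27 in BEAS-2B and 2.31 in THP-1, a difference of -0.04 ± 0.52 (limma adjusted p = 1), and no SOCS gene was called where 0.568% of all genes tested were. With an SE of this size the 1 h test does not show that the lines responded alike. At 3 h it was 1.48 in BEAS-2B and 4.37 in THP-1, a difference of -2.89 ± 0.52 (limma adjusted p = 0.00266), where 26.6% of all genes tested were called and 11.7% called lower. SOCS3 was below detection in the controls of both lines, so this value rests on baselines with no measured level, which differed by 0.52 in BEAS-2B minus THP-1, and its size is not exact. The 3 h difference was -2.13 to -3.64 over the fits that left out 1 array and was called in all 12.

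The second SOCS3 probe, ILMN_2156250, gave smaller changes. Its log2 levels were 5.32 and 6.00 in THP-1 after 1 h and 7.13 and 6.89 after 3 h, against 5.60 and 5.04 in controls. Both 3 h arrays and 1 of the 2 arrays at 1 h lay above both THP-1 controls. It read 5.56 and 6.21 in BEAS-2B after 1 h and 5.42 and 5.45 after 3 h, against 5.70 and 4.61 in controls. Each BEAS-2B dust group overlapped the BEAS-2B controls, and the probe was detected on 1 of 6 BEAS-2B arrays. In the limma fit over all 19045 kept probes it changed by 1.69 ± 0.36 in THP-1 at 3 h (adjusted p = 0.00299), at least 2.51-fold, and by 0.34, 0.73 and 0.28 in THP-1 at 1 h, BEAS-2B at 1 h and BEAS-2B at 3 h, none called (adjusted p 0.732 to 0.903). The interaction at 3 h on this probe was -1.41 ± 0.51 (limma adjusted p = 0.0657). It had 9 to 26 beads per array, against 17 to 29 for the brighter probe. This probe was detected on both arrays in THP-1 at 3 h and in no other group, so it entered the tests only through the group where it is high, and its call there is no separate support for the SOCS3 rise.

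**Figure D3:**
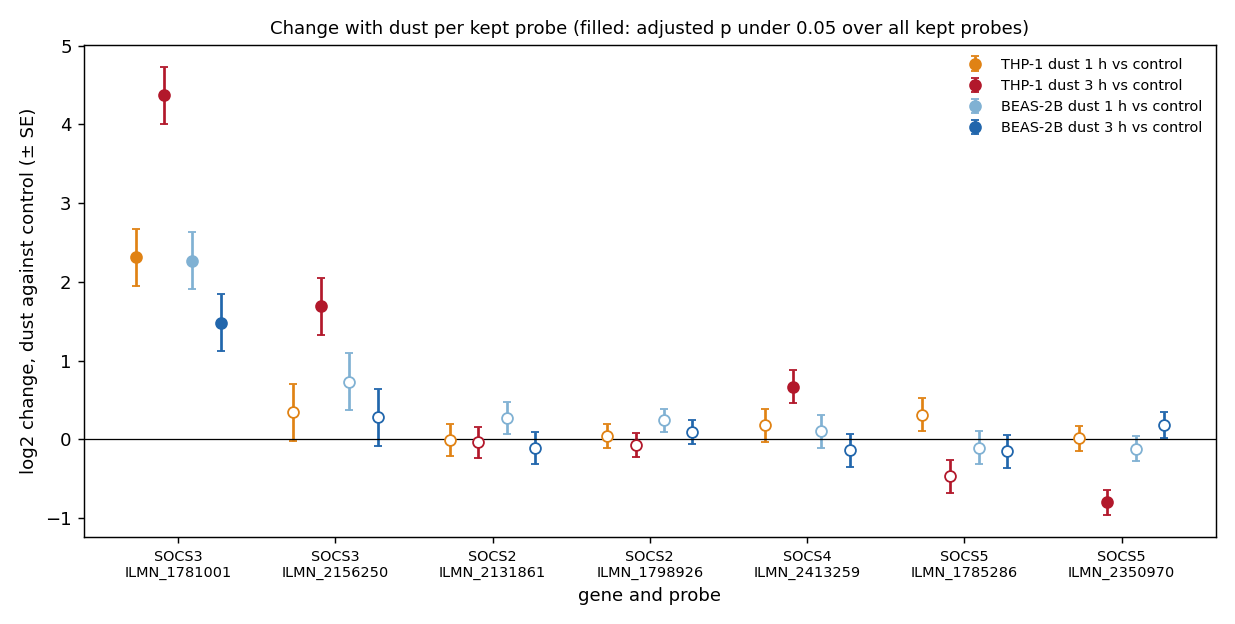
Log2 change with dust against control (± SE) for each kept SOCS probe in the 4 dust comparisons, filled where the limma adjusted p over all kept probes is under 0.05. SOCS3 probe ILMN_1781001 is filled in all 4, its second probe only in THP-1 at 3 h, and SOCS4 and the SOCS5 probe ILMN_2350970 only in THP-1 at 3 h.

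SOCS2, the member that limits growth hormone signalling, differed between the lines and was not called with dust. Its log2 levels (ILMN_2131861) were 8.88 and 9.13 in BEAS-2B after 1 h and 8.55 and 8.70 after 3 h, against 8.76 and 8.72 in BEAS-2B controls. In THP-1 it read 5.70 and 5.80 after 1 h and 5.94 and 5.5 after 3 h, against 6.02 and 5.49 in controls. Every BEAS-2B array was above every THP-1 array by more than 2 log2 units. Between controls, SOCS2 was 7.89-fold higher in BEAS-2B than in THP-1, a log2 difference of 2.98 ± 0.20 (limma adjusted p = 3.81e-07). Its other probe, ILMN_1798926, was undetected in THP-1 and at least 2.19-fold higher in BEAS-2B controls (limma adjusted p = 5.1e-07). Both SOCS2 probes entered the tests only through BEAS-2B, where they are high, so these calls between the lines are a description. In the control comparison SOCS2 and SOCS5 were the 2 members called higher in BEAS-2B, where 62.3% of all genes tested were called and 32.2% called higher. Each was tested on a probe that entered only through BEAS-2B, so this count is a description too. Control arrays of the lines did not overlap in 82% of all genes tested. A fold with 1 of 2 arrays of a group detected, as for SOCS2 in THP-1 controls, is the fitted one and is not exact. The dust changes of SOCS2 were -0.01 and -0.04 in THP-1 and 0.27 and -0.11 in BEAS-2B at 1 h and 3 h, with limma adjusted p of 0.82 to 0.998.

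CISH and SOCS1, the other members that act on cytokine receptors, stayed near background. CISH read 4.46 to 5.44 on the log2 scale over 12 arrays, with raw signals of 59.4 to 102, and reached detection on none. Its THP-1 values were 5.15 and 4.74 after 1 h and 4.61 and 4.8 after 3 h, against 5.44 and 5.30 in controls, all of them below detection. In a limma fit without the detection filter (37253 genes and unnamed probes) the CISH change at 3 h in THP-1 was -0.67 ± 0.16 (adjusted p = 0.0159) and that between BEAS-2B and THP-1 controls -0.64 (adjusted p = 0.0145). Both groups of each of these comparisons were below detection, so no fold is given.

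SOCS1 (ILMN_1774733) read 6.01 and 4.92 in THP-1 after 1 h and 6.54 and 5.79 after 3 h, against 5.65 and 5.54 in controls. Replicate 1 was detected at both times and replicate 2 at neither, so it failed the filter. The 2 THP-1 arrays at 3 h lay above both controls, while those at 1 h lay on either side of them. In BEAS-2B the SOCS1 levels were 4.70 to 5.31 and never detected. Without the filter the THP-1 change at 3 h was 0.57 ± 0.35 (limma adjusted p = 0.364).

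SOCS4, an EGF receptor regulator, was the other member called higher in THP-1 at 3 h. Its log2 levels (ILMN_2413259) were 7.74 and 8.15 in THP-1 after 1 h and 8.30 and 8.57 after 3 h, against 7.48 and 8.06 in controls. The 3 h arrays lay above both controls. The change at 3 h was 0.67 ± 0.21, or 1.59-fold (limma adjusted p = 0.0238). In raw signal the arrays overlapped, with 262 and 314 after 3 h against 243 and 325 in controls. With arrays scaled to their medians and not quantile-normalized, the change was 0.13 (limma adjusted p = 0.672), and without replicate 1 of the THP-1 controls or replicate 2 of the 3 h arrays it was 0.38 or 0.53 (limma adjusted p = 0.182 and 0.121). When the THP-1 arrays were processed without those of BEAS-2B it was 0.65 (limma adjusted p = 0.0639). In BEAS-2B, SOCS4 read 8.10 and 8.35 after 1 h and 7.97 and 7.99 after 3 h, against 8.13 and 8.12 in controls. These changes were 0.10 and -0.14 and were not called (limma adjusted p = 0.998 and 0.771). The difference of -0.81 ± 0.30 between BEAS-2B and THP-1 in the 3 h effect was not called either (limma adjusted p = 0.069), though without replicate 2 of the THP-1 controls it was -1.10 (limma adjusted p = 0.0197).

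SOCS5, the closest relative of SOCS4, had 2 kept probes, whose mean levels were nearly equal (5.82 and 5.81). Both read lowest in THP-1 at 3 h among the THP-1 groups, but they gave different pictures of the difference between the controls of the lines. ILMN_1785286, which stands for the gene in the tests, read 5.75 and 5.26 in THP-1 after 1 h and 4.64 and 4.8 after 3 h, against 5.06 and 5.34 in controls. The 3 h arrays lay lowest, but neither they nor the controls were detected, and the change at 3 h was -0.47 ± 0.21 (limma adjusted p = 0.0845). Between 3 h and 1 h the fitted change was -0.78 and was called (limma adjusted p = 0.0117), where 22.6% of all genes tested were called lower. The probe was detected on neither array at 3 h and on 1 of 2 at 1 h, so no bound on the fold can be given. That call ended without replicate 1 of the 1 h arrays (-0.54, limma adjusted p = 0.101) or of the 3 h arrays (-0.72, limma adjusted p = 0.0602). ILMN_2350970 read 5.96 and 6.12 in THP-1 after 1 h and 5.13 and 5.33 after 3 h, against 6.11 and 5.94 in controls. Here controls and 1 h arrays were all detected and the 3 h arrays were not. This probe fell by 0.80 ± 0.16 at 3 h against control, at least 1.14-fold (limma adjusted p = 0.00216 over all kept probes). Between 3 h and 1 h it changed by -0.81 ± 0.16 (limma adjusted p = 0.00247 over all kept probes), close to the -0.78 of ILMN_1785286. Of 9 processing alternatives, 3 called the SOCS5 change at 3 h against control, among them the mean of all kept probes (-0.64, limma adjusted p = 0.00326). The interaction of ILMN_2350970 at 3 h was 0.97 ± 0.23 (limma adjusted p = 0.0102), with changes of 0.18 in BEAS-2B and -0.80 in THP-1.

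In BEAS-2B, SOCS5 was detected more often and was not called with dust. ILMN_1785286 read 6.64 and 6.31 after 1 h and 6.63 and 6.24 after 3 h, against 6.56 and 6.61 in controls, and the groups overlapped. Its level in BEAS-2B controls was at least 1.87-fold that in THP-1 controls, a log2 difference of 1.39 ± 0.21 (limma adjusted p = 0.000161). This probe entered the tests only through BEAS-2B, where it is high, so its call between the lines is a description. ILMN_2350970 gave -0.18 ± 0.16 for the same comparison (limma adjusted p = 0.344), with 5.69 and 5.99 in BEAS-2B controls and 6.11 and 5.94 in THP-1 controls. The line difference of SOCS5 thus depends on the probe, and the 2 probes are annotated to different transcript records.

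SOCS6 and SOCS7, the members tied to receptor tyrosine kinases, were seen on few arrays. SOCS6 (ILMN_1657077) read 6.14 and 5.68 in BEAS-2B after 3 h, against 5.21 and 4.97 in controls. In THP-1 it read 5.83 and 5.07 after 1 h and 6.03 and 4.92 after 3 h, against 5.09 and 4.65 in controls. Replicate 1 of the BEAS-2B 3 h group and of both THP-1 dust groups was detected, each time without replicate 2. SOCS7 (ILMN_1753683) stayed between 4.84 and 5.64 and was detected on 1 array, of BEAS-2B after 1 h. Without the filter neither was called in any comparison, the smallest limma adjusted p with dust being 0.363 for SOCS6 in THP-1 at 3 h and 0.642 for SOCS7 in THP-1 at 3 h.

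Among 11421 other named genes, those whose 4 log2 changes with dust were nearest to SOCS3 were SGK1, a serum- and stress-induced kinase, MIR221, a microRNA gene, and MIR155HG, the host transcript of miR-155. SGK1 changed by 2.64 and 4.19 in THP-1 and by 1.73 and 1.60 in BEAS-2B at 1 h and 3 h, at a Euclidean distance of 0.67 from SOCS3. MIR221 lay at 0.83 and MIR155HG at 1.00. SGK1 was not called in BEAS-2B at 1 h (limma adjusted p = 0.0988). MIR155HG was not called at 1 h in THP-1 or in BEAS-2B (limma adjusted p = 0.0538 and 0.329). For SOCS4 the nearest were CTU2 at 0.08, ZNF653 at 0.10 and ADNP2 at 0.12. They changed by 0.60 to 0.69 in THP-1 at 3 h and by -0.21 to 0.25 elsewhere. The THP-1 change of ZNF653 at 3 h was not called (limma adjusted p = 0.0569). These distances describe 4 changes, which share controls within each line.

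Among ligands that signal through JAK kinases, the upstream side of SOCS control, 15 of 36 listed genes were measured. In BEAS-2B 3 rose at 1 h and 7 at 3 h, and in THP-1 2 rose at 1 h and 5 at 3 h, with none falling. Of all genes tested, 1.1% and 3.26% were called higher in BEAS-2B and 1.26% and 19.1% in THP-1 at 1 h and 3 h. IL12B and TSLP in THP-1 and CSF3 in BEAS-2B entered the tests only through the 3 h dust group where they are high. IL12A and IL24 entered only through the BEAS-2B dust groups at 1 h and 3 h, so these counts are a description. Median ligand log2 changes were 0.71 and 1.27 in BEAS-2B and 0.04 and 0.44 in THP-1 at 1 h and 3 h. Over all genes tested the medians were -0.05 to -0.03. With dim genes set to their bound the list medians were 0.25, 0.62, 0 and 0. LIF, a gp130 ligand whose receptor SOCS3 restrains, read 9.69 and 9.84 in BEAS-2B after 1 h and 9.59 and 7.32 after 3 h, against 5.75 and 5.65 in controls. The BEAS-2B change of LIF was 16.7-fold at 1 h (limma adjusted p = 0.003) and 6.72-fold at 3 h (limma adjusted p = 0.0135), and the 3 h call ended without either of 2 arrays (limma adjusted p = 0.0937 and 0.097). IL6, the founding gp130 ligand, read 12.75 and 13.20 after 1 h and 13.34 and 11.17 after 3 h, against 7.32 and 7.67 in BEAS-2B controls. As for SOCS3, replicate 2 at 3 h was the lower array for LIF and IL6. IL6 was undetected on all THP-1 arrays. In THP-1 the ligand genes that rose most at 3 h were IL23A, the specific subunit of IL-23, at 188-fold (limma adjusted p = 5.52e-09), and EBI3, a subunit of IL-27, at 114-fold (limma adjusted p = 1.36e-07). IL24 rose 4.86-fold at 1 h and 22.1-fold at 3 h in BEAS-2B (limma adjusted p = 0.00013 and 9.21e-07).

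Of 26 measured receptors that signal through JAK kinases, none was called at 1 h in either line (3 in THP-1 and 4 in BEAS-2B at an unadjusted p under 0.05). At 3 h 10 rose and 4 fell in THP-1, and 5 rose and 1 fell in BEAS-2B. The shares of all genes tested were 19.1% called higher and 26.5% lower in THP-1 at 3 h, and 3.26% higher and 2.21% lower in BEAS-2B. IL7R, the IL-7 receptor chain, was at least 79.2-fold higher in THP-1 at 3 h (limma adjusted p = 5.73e-07). CRLF2, the TSLP receptor, was at least 8.78-fold higher there (limma adjusted p = 9.68e-07), the 1 group in which both arrays detected it. IL4R, a receptor that SOCS proteins restrain, rose 4.90-fold in THP-1 and 1.99-fold in BEAS-2B at 3 h (limma adjusted p = 2.11e-06 and 0.00603). In BEAS-2B, OSMR, which pairs with gp130, rose 1.82-fold (limma adjusted p = 0.0166) and IL20RB fell by 1.39 on the log2 scale (limma adjusted p = 0.00333). The receptor median was 0.21 in THP-1 and 0.13 in BEAS-2B at 3 h. The BEAS-2B calls of IL4R and OSMR ended in some fits that left out 1 array, with limma adjusted p of up to 0.0668 and 0.171.

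JAK kinases and STAT factors, the direct targets and effectors of the pathway, were measured for 8 of 11 genes. None was called at 1 h in either line, and none reached an unadjusted p under 0.05 there (0 and 0 genes). At 3 h in THP-1, STAT4, STAT5A and STAT5B rose and JAK2 fell, 4 of 8 measured, close to the 45.6% of all genes tested that were called there. STAT4 read 12.14 and 12.28 in THP-1 after 3 h, against 5.94 and 6.32 in controls, a 67.8-fold change (limma adjusted p = 1.6e-08). STAT5A read 11.71 and 11.76, against 8.44 and 8.11 in controls, an 11-fold change (limma adjusted p = 2.26e-05). JAK2 fell by 1.09 on the log2 scale (limma adjusted p = 0.00319). In BEAS-2B at 3 h STAT5A rose 3.63-fold (limma adjusted p = 0.012) and was the only gene of the list called. That call ended without either of 2 arrays (limma adjusted p = 0.0765 and 0.105), and the STAT5B call in THP-1 when any 1 of 3 arrays was left out (limma adjusted p of up to 0.101). Under median scaling STAT5B changed by 0.25 (limma adjusted p = 0.324).

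Of 17 listed genes that STAT factors are known to induce, 16 were measured. In THP-1 5 rose at 1 h and 13 at 3 h, where 1.26% and 19.1% of all genes tested were called higher, and the list medians were 0.72 and 2.02. In BEAS-2B 5 rose at 1 h and 3 at 3 h, where 1.1% and 3.26% of all genes tested were called higher, and the list medians were 0.85 and 0.64. The other measured genes did not pass, and none was called lower. PIM3, called in THP-1 at both times, was detected on no control array. It entered the tests only through dust groups, so these counts are a description. Many of these genes respond to other pathways too. BCL3, an NF-kB cofactor, rose 5.57-fold at 1 h and 15.9-fold at 3 h in THP-1 (limma adjusted p = 0.000397 and 1.09e-06). JUNB, an AP-1 subunit, rose 7.15-fold in THP-1 and 4.94-fold in BEAS-2B at 1 h (limma adjusted p = 0.000499 and 0.00304). IRF1, an interferon-induced factor, and PIM1, a cytokine-induced kinase, rose 5.49-fold and 4.8-fold in BEAS-2B at 1 h (limma adjusted p = 0.00705 and 0.00496). In BEAS-2B at 1 h the calls of IRF1, PIM1 and JUNB ended when 1 of 4, 3 and 1 particular arrays was left out, with limma adjusted p of up to 0.0776, 0.0745 and 0.0512. The FOS call in BEAS-2B at 1 h ended without any 1 of 4 arrays, with changes of 2.46 to 2.83. In THP-1 at 1 h those of CCND1 and PIM3 ended when 1 of 8 and 2 particular arrays was left out. The 3 BEAS-2B calls at 3 h, of BCL2L1, CCND1 and VEGFA, ended when 1 of 9, 2 and 1 was. The IRF1 call in THP-1 at 3 h ended without either of 2 arrays. At 3 h in BEAS-2B IRF1 read 12.21 and 10.86, against 10.70 and 10.67 in controls, with replicate 2 again the lower (limma adjusted p = 0.208). Over the 8 lists, 14 of 17 genes called higher in BEAS-2B at 3 h were lower in replicate 2.

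**Figure D4:**
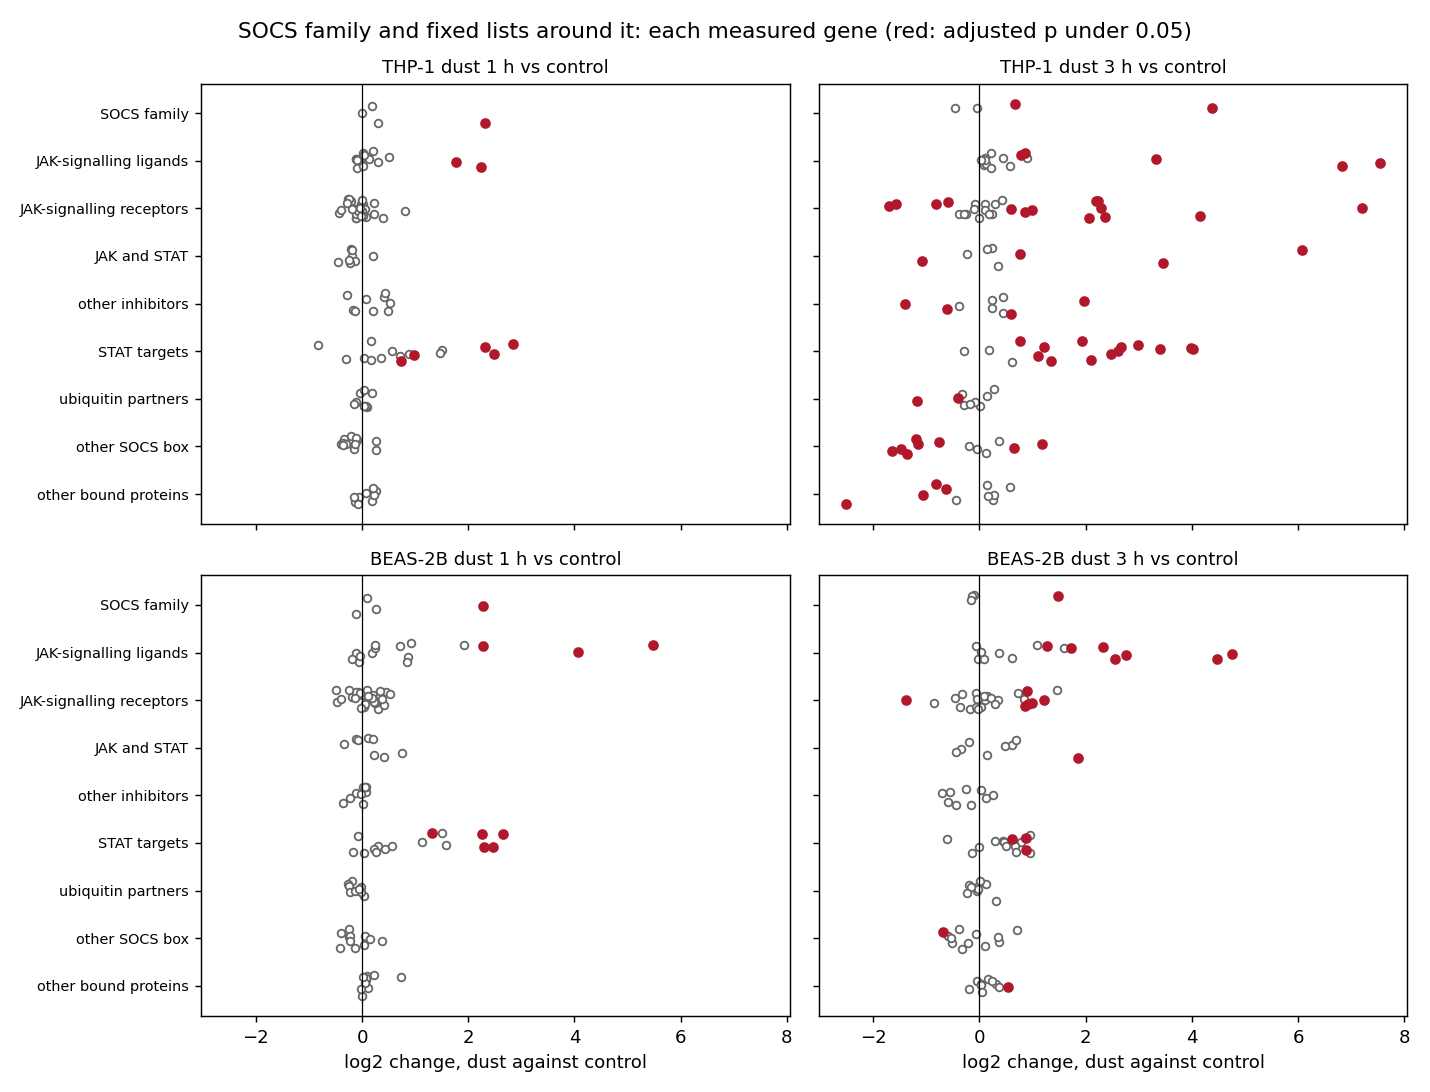
Log2 change with dust against control of each measured gene (points) of the SOCS family and of the 8 lists around it, in the 4 dust comparisons, red where the limma adjusted p is under 0.05. In THP-1 at 3 h, 13 of 16 STAT targets are called higher, and 6 of 12 other SOCS box proteins and 4 of 10 other bound proteins are called lower.

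Other inhibitors of JAK-STAT signalling act beside SOCS proteins, and 4 of 9 measured were called in THP-1 at 3 h, close to the 45.6% of all genes tested that were called there. None of the 9 was called at 1 h in either line (3 in THP-1 and 0 in BEAS-2B at an unadjusted p under 0.05), nor at 3 h in BEAS-2B (3 at an unadjusted p under 0.05). At 3 h in THP-1, PTPN1, a phosphatase of JAK2 and TYK2, rose 3.88-fold (limma adjusted p = 6.83e-05) and PTPN11 rose 1.5-fold (limma adjusted p = 0.0151). PIAS3, an inhibitor of STAT3, fell by 1.40 on the log2 scale (limma adjusted p = 0.00172), and PTPRC fell by 0.61 (limma adjusted p = 0.0232). The PTPN11 and PTPRC calls each ended without either of 2 arrays (limma adjusted p of up to 0.107 and 0.174), and under median scaling PTPN11 changed by 0.33 (limma adjusted p = 0.149).

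Among partners in the ubiquitin ligase that the SOCS box recruits, 2 of 9 measured were called in THP-1 at 3 h. RNF7, the ring subunit paired with cullin 5, fell by 1.17 on the log2 scale (limma adjusted p = 0.000302). NEDD8, the cullin activator, fell by 0.40 (limma adjusted p = 0.0373), a call that ended when any 1 of 9 arrays was left out (limma adjusted p of up to 0.234). Under median scaling NEDD8 changed by -0.35 (limma adjusted p = 0.0636). Both calls were made where 26.5% of all genes tested were called lower. CUL5, ELOB and ELOC were not called in any dust comparison with control. In the other 3 dust comparisons none of the 9 was called, with 0 at 1 h in each line and 1 at 3 h in BEAS-2B at an unadjusted p under 0.05.

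Of 12 other proteins with a SOCS box measured in THP-1 at 3 h, 6 fell and 2 rose, with a median of -0.48, or -0.30 with dim genes at their bound. There, 26.5% of all genes tested were called lower and 19.1% higher. ASB3, RAB40B and ASB8 fell by 1.15, 1.48 and 1.36 on the log2 scale (limma adjusted p = 5.07e-05, 6.75e-05 and 0.000184). ASB13 was at least 1.32-fold lower (limma adjusted p = 0.000172). SPSB1 and WSB2, named after their values were seen, were the genes that rose. In BEAS-2B at 3 h SPSB2 fell by 0.68 (limma adjusted p = 0.0263) and was the only gene of 12 called, where 2.21% of all genes tested were called lower. The call ended when any 1 of 4 arrays was left out (limma adjusted p of up to 0.164). SOCS4 was called higher in the same THP-1 arrays.

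Of 10 further proteins reported to be bound by SOCS members, 4 fell in THP-1 at 3 h, where 26.5% of all genes tested were called lower. KIT, the stem cell factor receptor, read 5.14 and 5.34 after 3 h, against 7.47 and 8.06 in controls, and was at least 3.81-fold lower (limma adjusted p = 1.44e-05). It entered the tests only through the THP-1 control and 1 h groups, where it is high. The count of genes that fell is therefore a description. FLT3, a related receptor of myeloid precursors, fell by 1.07 on the log2 scale (limma adjusted p = 0.000391). NCK1 and IRS2, both signalling adaptors, fell by 0.82 and 0.63 (limma adjusted p = 0.00522 and 0.0454). EGFR, the receptor that SOCS4 and SOCS5 act on, rose 1.45-fold in BEAS-2B at 3 h (limma adjusted p = 0.0328) and was undetected in THP-1. The IRS2 call ended when any 1 of 10 arrays was left out and the EGFR call when any 1 of 7 was (limma adjusted p of up to 0.339 and 0.207).

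In the 4 dust comparisons SOCS3 kept a positive change under each alternative that measured it, while its size and its calls varied. Without background correction the changes were smaller, and at 3 h in BEAS-2B the call was lost, with 0.85 (limma adjusted p = 0.0574). In the authors' own value table that change was 0.86 (limma adjusted p = 0.0574).

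**Figure D5:**
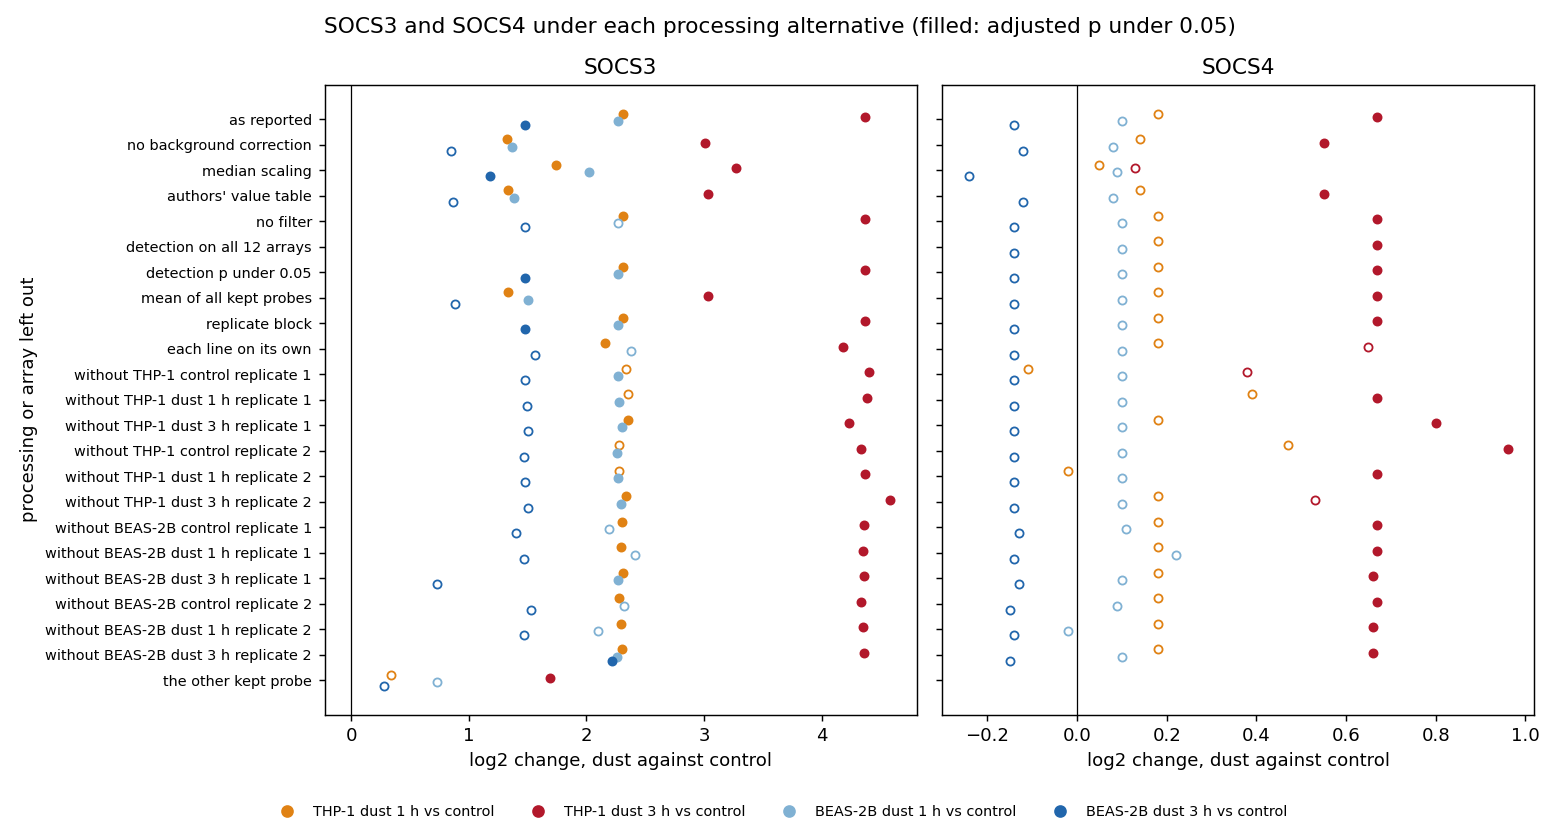
Log2 change with dust against control for SOCS3 and SOCS4 under each processing alternative and with each array left out, filled where the limma adjusted p is under 0.05. SOCS3 in THP-1 at 3 h is filled throughout, whereas BEAS-2B at 3 h is open in most settings, and SOCS4 in THP-1 at 3 h is near 0.13 under median scaling.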

How the data were processed

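Expression was measured in 12 samples of 2 cell lines, 2 arrays for each of 6 groups taken from the sample titles. Per the file headers, each probe of the deposited raw table has a linear signal intensity with the standard error of that intensity between beads. Its deposited columns also give a count of beads and a p-value of detection. GenomeStudio 2011.1 is named in the submitters' processing notes. The linear intensity in the authors' own table is, judging by its values, quantile-normalized. No other value columns were present, and 0 columns could not be mapped to a sample. Arrays give no read depth, so their number limits the precision, with a median of 21 beads per probe.

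The deposited signals were turned into log2 intensities in R 4.3.3 with neqc of limma 3.58.1 (offset 16), which uses the detection p-values for background and then normalizes by quantiles. The 19045 probes with a detection p-value below 0.01 in both replicates of 1 or more groups were kept, and each gene was represented by its kept probe of highest mean. Symbols were updated through Entrez numbers to GRCh38.p14 names. A model of 6 group means was fitted to all 12 arrays (limma, moderated by eBayes, with 6 residual and 4.3 prior degrees of freedom), and calls were made at a Benjamini-Hochberg adjusted p under 0.05 over 15489 genes and unnamed probes. Other kept probes were tested in a fit on all kept probes. The fit was tested on simulated data.

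All 8 members were named with every probe. From each of 8 lists, up to 4 called genes of smallest p per dust comparison were named, as were the 3 genes nearest to each member called with dust. CUL5, ELOB and ELOC were named after their values were seen. The members and lists were chosen with earlier results of these data known. Alternatives were the authors' table, median scaling, no background correction, no filter, detection on all 12 arrays, detection p under 0.05, the mean of all kept probes, a replicate block, each line on its own and each array left out, and, chosen after seeing the data, the other kept probe. Replicate numbers are shared across groups but no label ties them to a culture or day.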

Additional observations from a re-analysis of the deposited data

Results flagged for a closer look

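The dust effect on SOCS3 at 3 h (ILMN_1781001) differed between the lines by an interaction test, at -2.89 on the log2 scale for BEAS-2B minus THP-1. SOCS3 was below detection in the controls of both lines, so the size of this value is not exact, and the second SOCS3 probe gave -1.41 (limma adjusted p = 0.0657). SOCS5 was picked out by the same test on its probe ILMN_2350970, at 0.97, while its other kept probe gave 0.33 (limma adjusted p = 0.455).

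Probes left out of the tests reached detection on dust arrays and on no control array for 3 members. SOCS1 did so on 2 dust arrays, SOCS6 on 3 and SOCS7 on 1. Of 28275 probes left out by the filter, 5.3% were detected on at least 1 dust array and no control array, and 1.71% on at least 1 control array and no dust array, where there were 8 dust and 4 control arrays.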

How the results depend on the processing

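Of 741 values of family genes under the alternatives, 690 kept their side of the threshold, 36 lost a call, 14 gained one and 1 reversed. Among the 690, 38 changed sign without a call in either fit. The reversed value was SOCS5 between BEAS-2B and THP-1 controls, at -0.18 on its other kept probe, an alternative chosen after seeing the data. The counts of SOCS genes called moved as follows, where detection on all 12 arrays left SOCS4 as the only member tested. In THP-1 at 1 h the count was 0 with detection on all 12 arrays. In THP-1 at 3 h it was 1 under median scaling and 1 with detection on all 12 arrays. In BEAS-2B at 1 h it was 0 with no filter, with detection on all 12 arrays and with each line on its own. In BEAS-2B at 3 h it was 0 without background correction, in the authors' table, with no filter, with detection on all 12 arrays, with the mean of kept probes and with each line on its own. For 3 h against 1 h in THP-1, for the interaction at 3 h and for the controls it was 0 with detection on all 12 arrays. The interaction count was 2 with the mean of kept probes. Leaving out 1 array at a time gave counts of 0 to 1 in THP-1 at 1 h, 1 to 2 in THP-1 at 3 h, 0 to 1 in BEAS-2B at 1 h and at 3 h, 1 to 3 for 3 h against 1 h in THP-1, 0 to 1 for the same in BEAS-2B, 0 to 0 and 1 to 2 for the interaction at 1 h and 3 h, and 2 to 3 for the controls. The filter was rerun in each fit that left out 1 array, so the genes tested could change too. The cause of these shifts was not tested.

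With the replicate block the interaction at 3 h called 2 SOCS genes, adding SOCS4 (-0.81, limma adjusted p = 0.0297), and SOCS4 passed for 3 h against 1 h in THP-1 (0.49, limma adjusted p = 0.0408). Same-numbered arrays of different groups correlated at -0.1 to 0.34 (median 0.08) in their deviations, above 0.1 in 7 of 15 pairs of groups. With 2 arrays per group, these correlations cannot settle whether the numbers pair the samples.

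With detection on all 12 arrays fewer genes were tested, so lower counts there need not mean lower shares. Counts over all genes fell by more than 1.5 times in that setting. They were then 139 against 255 in THP-1 at 1 h, 4618 against 7067 in THP-1 at 3 h, 69 against 183 in BEAS-2B at 1 h, 458 against 847 in BEAS-2B at 3 h, 4055 against 6116 and 176 against 422 for 3 h against 1 h in THP-1 and BEAS-2B, 26 against 88 and 2451 against 4114 for the interaction at 1 h and 3 h, and 5812 against 9649 for the controls. Median scaling gave 1324 in BEAS-2B at 3 h. In some fits without 1 array the counts rose, among them BEAS-2B at 1 h and the interaction at 1 h. Leaving out 1 array gave as few as 151 in THP-1 at 1 h, 69 in BEAS-2B at 1 h, 217 in BEAS-2B at 3 h, 80 for 3 h against 1 h in BEAS-2B and 30 for the interaction at 1 h. Median scaling moved the median of all genes in THP-1 at 3 h to -0.29, against -0.05, and the share of calls that were higher to 20%, against 42%. It moved that share to 40.2%, against 59.6%, in BEAS-2B at 3 h and to 60.1%, against 76.5%, in THP-1 at 1 h. Of 3656 values of list genes under the alternatives, 123 lost a call, 32 gained one and 0 reversed. A further 55 changed sign without a call in either fit.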
